A study of Mus musculus with 6 samples.

Results

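The livers of soy-fed and control mice were compared for 10 genes of aldehyde and alcohol oxidation: the molybdenum hydroxylases Aox1, Aox3 and Xdh, the aldehyde dehydrogenases Aldh1a1, Aldh1a7, Aldh2, Aldh3a2 and Aldh9a1, and the alcohol dehydrogenases Adh1 and Adh4. They were taken by name, and their probes by the RefSeq accession that the arrays give, which left out control spots. This gave 17 of the 56605 probes and 10 of the 22911 genes that could be named. The animals were male mice, 12 weeks old when put on the diets, of a strain that is not given in the sources used here. The control group (3 mice) ate 100% granulated regular chow, and the soy group (3 mice) ate chow made of 75% regular food and 25% soy bean, both for 4 weeks. Total RNA of each liver was labelled with Cy3 and hybridised to its own Agilent mouse array. Values are normalised signals on the log2 scale, and a change is the soy mean minus the control mean on that scale. All 17 probes were well above background on all 6 arrays. With 3 arrays per group, precision is limited by their number.

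Aldehydes arise in the liver from alcohols, membrane lipids, amines, retinol and foreign compounds, and they react with proteins and DNA when they are not cleared. Alcohol dehydrogenases turn alcohols into aldehydes with NAD as the electron acceptor, and aldehyde dehydrogenases turn aldehydes into acids with NAD or NADP. The molybdenum hydroxylases use a molybdenum cofactor, FAD and iron-sulphur clusters; aldehyde oxidases act on aldehydes and on nitrogen-containing rings of drugs, whereas xanthine oxidoreductase, the product of Xdh, makes uric acid from hypoxanthine and xanthine. Hepatocytes are rich in enzymes of all 3 families.

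The thresholds of the study ask for a fold above 1.5 or under 0.66 and for an adjusted p under 0.05. None of the 10 genes passed them on any probe (limma, Benjamini-Hochberg over all probes), where 0.532% of all genes did. By the brightest probe of each gene, 8 of the 10 were higher and 2 were lower in soy livers, with a median change of 0.41 against -0.0057 over all genes. An unadjusted p under 0.05 was reached by 6 genes, Aox1, Aox3, Aldh1a1, Aldh3a2, Adh1 and Adh4, against 20.1% of the genes well above background on all arrays (10.8% higher and 9.28% lower). Each of these 6 was higher in every soy liver than in any control liver, and no gene was lower without overlap. Of the genes well above background on all arrays, 13.3% were higher without overlap and 12.3% were lower, and of all genes 9.68% and 10.8%. Adjusted p-values under 0.1 were found for Aox1, Aldh3a2 and Aldh1a1, against 2.26% of those genes (1.38% higher in soy). The changes of these 3 genes were 1.72, 1.27 and 0.71, which correspond to 3.30-fold, 2.41-fold and 1.64-fold. Liver tissue holds several cell types, so a gain of cells that make a transcript and more of it per cell cannot be told apart here.

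**Figure D1:**
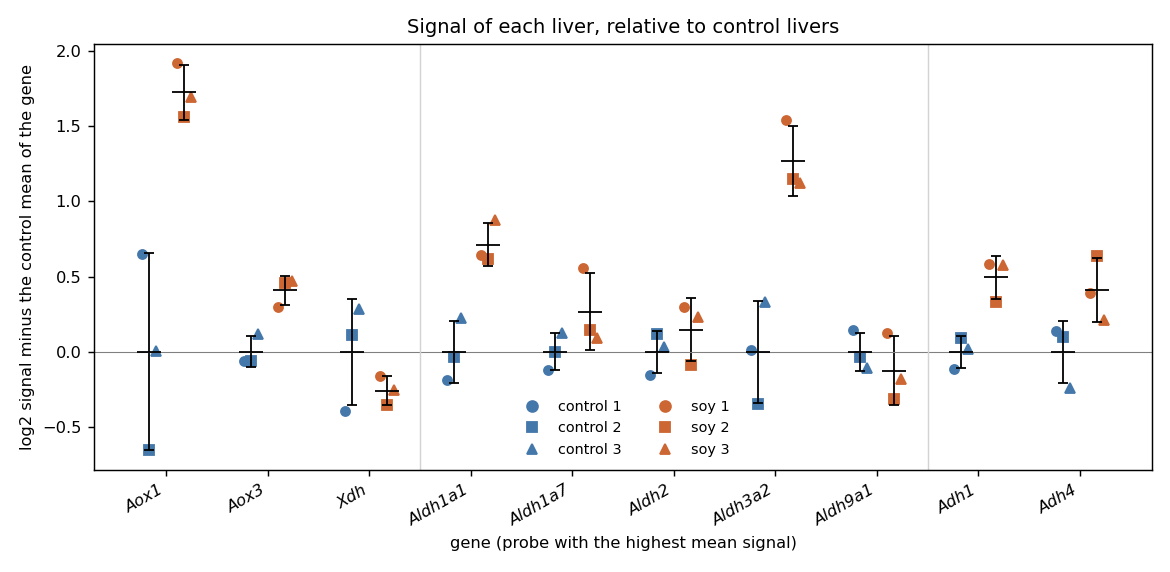
Log2 signal of the brightest probe of each gene in each of the 6 livers, with the mean of the control livers set to 0; bars give the mean and SD of 3 livers, and grey lines part the 3 enzyme families. The soy livers lie above all control livers for Aox1, Aox3, Aldh1a1, Aldh3a2, Adh1 and Adh4, and overlap with them for the other 4 genes.

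The largest changes were those of Aox1 and Aldh3a2, and the promoters of these genes are given here so that their sequence can be read beside the values. Each runs from 250 bases before to 50 bases after the transcription start in RefSeq, 5′ to 3′ on the strand of the gene, in build GRCm38.p6: Aox1 at chr1:58029719-58030018 on the + strand and Aldh3a2 at chr11:61267137-61267436 on the - strand. Capitals mark GC boxes (GGGCGG on either strand), a common element of promoters.
Aox1: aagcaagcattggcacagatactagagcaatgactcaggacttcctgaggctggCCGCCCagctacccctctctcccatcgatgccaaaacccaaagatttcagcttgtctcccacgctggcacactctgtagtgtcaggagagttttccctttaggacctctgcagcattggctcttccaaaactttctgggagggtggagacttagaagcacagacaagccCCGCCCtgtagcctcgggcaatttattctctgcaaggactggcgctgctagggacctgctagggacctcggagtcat
Aldh3a2: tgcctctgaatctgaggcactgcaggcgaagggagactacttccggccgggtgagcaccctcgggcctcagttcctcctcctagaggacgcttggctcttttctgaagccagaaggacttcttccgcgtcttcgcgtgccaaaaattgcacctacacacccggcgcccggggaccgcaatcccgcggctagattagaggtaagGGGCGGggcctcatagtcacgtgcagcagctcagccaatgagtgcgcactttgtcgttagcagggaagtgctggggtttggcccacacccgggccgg
The Aox1 window held 2 GC boxes and the Aldh3a2 window held 1, where 35.7% of the 32851 promoter windows of this length hold at least 1. Neither held the core of the antioxidant response element bound by NRF2 (TGACNNNGC, found in 12.4% of windows) or a TATA box (TATAAA, found in 13.6%), each searched on both strands. These matches describe letters in the windows only. RefSeq windows were matched for 8 of the 10 genes.

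Aox1 encodes an aldehyde oxidase that can act on drugs and on retinaldehyde. Its signal (NM_009676) was 13.89, 12.59 and 13.25 in the 3 control livers and 15.16, 14.80 and 14.94 in the 3 soy livers. The soy livers lay close together and all above the control livers, among which control 2 was the lowest and control 1 the highest. The means were 13.24 ± 0.65 in control and 14.97 ± 0.18 in soy livers (SD, n = 3), a change of 1.72 (SE 0.30, 95% interval 1.03 to 2.41, limma adjusted p = 0.0732). Of the 13513 genes well above background on all arrays, 0.155% had a larger change. Without control 1 the change was 2.05 with an adjusted p of 0.0405, and without the other arrays it was 1.40 to 1.81 with adjusted p-values of 0.115 to 0.206. The paper describes Aox1 as strongly up-regulated and places it in the network of its differentially expressed genes from these arrays. With all arrays it did not pass the thresholds of the study here (limma adjusted p = 0.0732), and the reason for this difference was not tested. The place of Aox1 among the genes described here is not independent of the choice made in the study.

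Aox3, the neighbour of Aox1 on chromosome 1, encodes an aldehyde oxidase that is made mainly in the liver. Its brighter probe (NM_023617) gave 13.48, 13.48 and 13.66 in control livers and 13.84, 14.00 and 14.01 in soy livers. All soy livers were above all control livers, with a gap of 0.18 between the groups. The change was 0.41 (SE 0.11, adjusted p = 0.185), and on the dimmer probe it was 0.46 (SE 0.11, adjusted p = 0.173), again without overlap.

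Xdh (NM_011723) did not differ beyond its spread, and its probes gave opposite signs. The brighter probe was 11.91, 12.41 and 12.59 in control livers and 12.14, 11.95 and 12.05 in soy livers. Control 1 lay below all soy livers whereas control 2 and control 3 lay above them. Its change was -0.26 (95% interval -0.67 to 0.15, adjusted p = 0.636), and that of the dimmer probe was 0.23 (95% interval -0.14 to 0.60, adjusted p = 0.639).

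Aldh3a2 encodes the fatty aldehyde dehydrogenase of the endoplasmic reticulum, which oxidises long-chain aldehydes from lipids. It was measured by 3 probes of the same transcript (NM_007437), and all of them were higher in soy livers without overlap. The brightest was 13.77, 13.41 and 14.08 in control livers and 15.29, 14.90 and 14.87 in soy livers. Control 2 was the lowest and control 3 the highest of the control livers, and the lowest soy liver was 0.79 above control 3. The change was 1.27 (SE 0.19, 95% interval 0.82 to 1.72, adjusted p = 0.0531). The dimmer probes differed by 1.098 (SE 0.21, adjusted p = 0.0905) and 1.01 (SE 0.16, adjusted p = 0.0615). Of the genes well above background on all arrays, 0.488% had a larger change than the brightest probe.

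Aldh1a1 encodes a cytosolic enzyme that oxidises retinaldehyde to retinoic acid and also acts on aldehydes of lipid peroxidation. Its signal (NM_013467) was 17.05, 17.20 and 17.46 in control livers and 17.88, 17.85 and 18.11 in soy livers. The groups did not overlap, and the gap between them was 0.39. The change was 0.71 (SE 0.14, 95% interval 0.39 to 1.03, adjusted p = 0.0961). Aldh1a7 (NM_011921), a close copy of Aldh1a1, was 14.81, 14.93 and 15.05 in control livers and 15.49, 15.07 and 15.02 in soy livers. Only soy 1 lay clearly above the control livers, and soy 3 lay just under control 3. Its change was 0.27 (95% interval -0.074 to 0.61, adjusted p = 0.548). Probe sequences were not analysed here, so signal shared between these copies was not tested.

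Aldh2 encodes the mitochondrial enzyme that clears the acetaldehyde made from ethanol. Its brighter probe (NM_009656) was 16.93, 17.21 and 17.12 in control livers and 17.38, 16.99 and 17.32 in soy livers. Soy 2 lay among the control livers, and the groups overlapped. The change was 0.15 (95% interval -0.17 to 0.47, adjusted p = 0.730), and on the dimmer probe it was 0.062 (95% interval -0.25 to 0.38, adjusted p = 0.897). Aldh9a1 encodes an enzyme that oxidises aminoaldehydes on the way to carnitine and GABA. Its brighter probe (NM_019993) was 14.44, 14.27 and 14.20 in control livers and 14.43, 13.99 and 14.12 in soy livers, with overlap between the groups. The change was -0.12 (95% interval -0.45 to 0.20, adjusted p = 0.785) on this probe and 0.092 (adjusted p = 0.830) on the dimmer one. For Aldh2 and Aldh9a1 the intervals exclude a change as large as that of Aldh3a2.

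Adh1 encodes the main hepatic alcohol dehydrogenase for ethanol and retinol. Its brighter probe (NM_007409) was 17.05, 17.25 and 17.18 in control livers and 17.74, 17.49 and 17.74 in soy livers. All soy livers were above all control livers on both probes. The changes were 0.50 (SE 0.11, 95% interval 0.23 to 0.76, adjusted p = 0.150) and 0.50 (SE 0.10, 95% interval 0.26 to 0.74, adjusted p = 0.118). Adh4, an alcohol dehydrogenase of the same gene cluster on chromosome 3 that also acts on retinol, was measured by 1 probe (NM_011996). It gave 14.63, 14.59 and 14.25 in control livers and 14.88, 15.12 and 14.70 in soy livers. Soy 3 was only 0.071 above control 1, so the groups were separate by a narrow gap. The change was 0.41 (SE 0.15, 95% interval 0.060 to 0.77, adjusted p = 0.357).

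**Figure D2:**
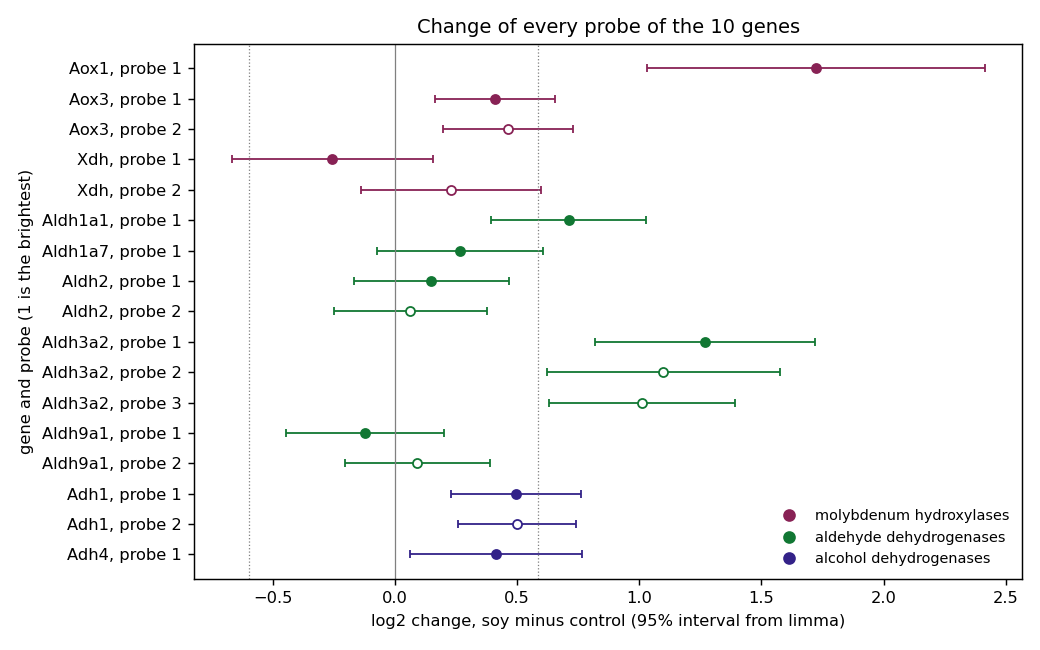
Change of each of the 17 probes on the log2 scale (soy minus control), with the 95% interval from limma; filled points are the brightest probe of a gene, open points its other probes, and dotted lines mark fold changes of 1.5 and 0.66. The intervals of Aox1 and of the 3 Aldh3a2 probes lie wholly above the upper dotted line, whereas those of Xdh, Aldh1a7, Aldh2 and Aldh9a1 include 0.

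The arrays came from 3 slides. Slide 1 held 2 control arrays (1 and 2) with soy 1, slide 3 held control 3 with soy 3, and soy 2 was alone on slide 2, so the difference was also taken within slides 1 and 3. For Aox1 it was 1.92 within slide 1 and 1.69 within slide 3. For Aldh3a2 it was 1.70 and 0.79, and for Aldh1a1 it was 0.76 and 0.65. The direction was also kept by Aox3 (0.36 and 0.35), Adh1 (0.59 and 0.55) and Adh4 (0.27 and 0.45), and by the brighter probes of Aldh2 (0.32 and 0.20) and Xdh (-0.020 and -0.54). The dimmer probes of Aox3 (0.62 and 0.36), Adh1 (0.63 and 0.32) and Aldh3a2 (1.57 and 0.50, and 1.34 and 0.65) kept it too, with the lower value within slide 3. The sign differed between the slides for Aldh1a7 (0.62 and -0.027), for the dimmer probes of Aldh2 (0.34 and -0.26) and Xdh (0.45 and -0.16), and for Aldh9a1 on its brighter (0.073 and -0.075) and dimmer (0.24 and -0.065) probe. Slide 2 gives no value. With a slide term added to the fit, none of the 10 genes had an adjusted p under 0.179.

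The adjusted p-values of the 3 leading genes lay near the threshold, and that of Aox1 and Aldh3a2 crossed it with the set of probes tested. One alternative tested only probes well above background, which were those so on all control arrays, on all soy arrays or on both. With it Aldh3a2 (limma, adjusted p = 0.0279) and Aox1 (adjusted p = 0.0374) passed, and Aldh1a1 did not (adjusted p = 0.0539). On the brightest probes the changes ran between 1.095 and 1.43 for Aldh3a2, 1.40 and 2.05 for Aox1, and 0.62 and 0.82 for Aldh1a1 over 18 alternatives, apart from the within-slide values above. On the dimmer Aldh3a2 probes they ran from 0.93 to 1.30 and from 0.88 to 1.53, the last with the processed signal.

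**Figure D3:**
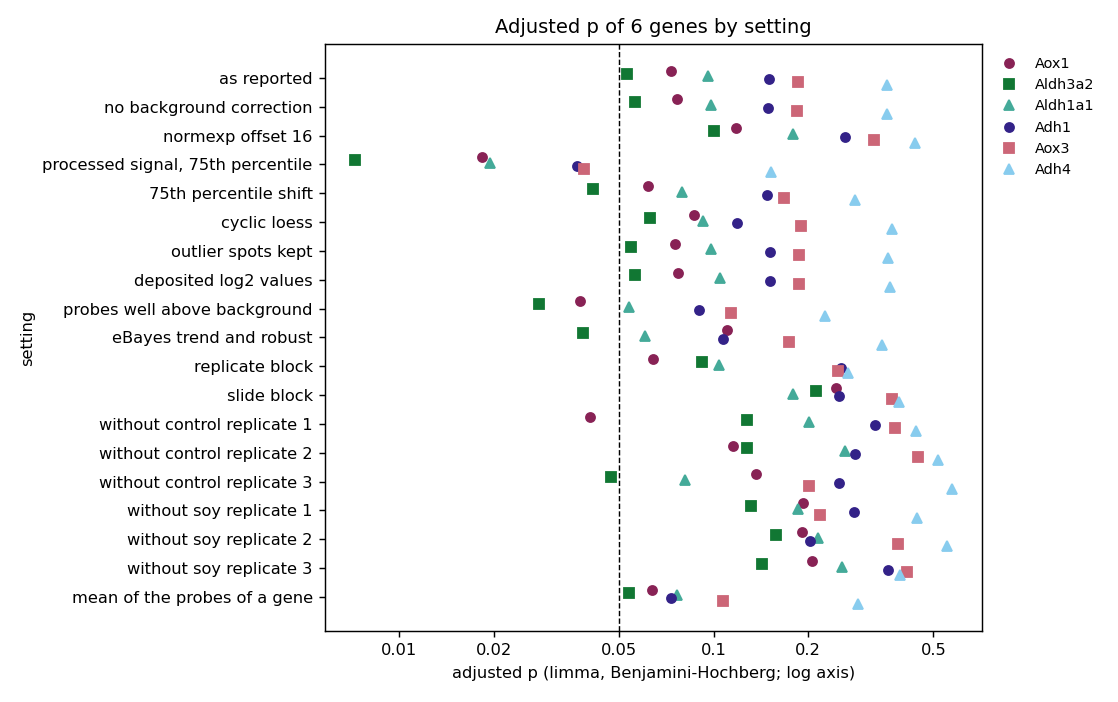
Adjusted p on a log axis for the brightest probe of 6 genes as reported and under 18 alternatives, one row per setting; the dashed line marks 0.05. Most points lie to the right of the line; Aldh3a2 lies left of it under 5 alternatives and Aox1 under 3, and Aldh1a1, Aox3 and Adh1 under the processed signal alone.

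Related genes were followed in 6 lists, which hold 57 genes, of which 55 were measured. Of these, 46 were well above background on all arrays and 4 on none, and counts of direction include all 55. None of the 55 passed (limma), 11 had an unadjusted p under 0.05, and their median change was 0.0066, with 29 higher and 26 lower in soy livers. Without overlap, 13 were higher and 4 lower. Of all genes, 14.2% had an unadjusted p under 0.05, and 9.68% were higher and 10.8% lower without overlap; of the genes well above background on all arrays these shares were 20.1%, 13.3% and 12.3%.

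Of the 10 genes for other molybdenum enzymes and for the synthesis of the cofactor, 5 were higher and 5 lower, with a median change of 0.067. Mocos, which adds the sulphur that aldehyde oxidases and xanthine oxidoreductase need on their molybdenum, was 12.87, 13.02 and 13.37 in control livers and 13.51, 13.84 and 14.02 in soy livers. The soy livers were all above the control livers, a change of 0.70 (SE 0.17, adjusted p = 0.174). Mocs2, of the pathway that makes molybdopterin, was likewise higher without overlap, by 0.16 (adjusted p = 0.577). Suox, the sulphite oxidase, differed by 0.27 (adjusted p = 0.659) and Mtarc1, an amidoxime-reducing enzyme, by -0.17 (adjusted p = 0.689), both with overlap. Aox2 and Aox4, the aldehyde oxidases of other tissues, were well above background on no array.

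Of 16 other aldehyde dehydrogenases, 8 were higher and 8 lower, with a median change of -0.022. Only 11 of the 16 were well above background on all arrays. The largest change was that of Aldh3b1, which oxidises fatty aldehydes at membranes. Its signal was 9.37, 9.48 and 9.72 in control livers and 10.12, 10.21 and 10.83 in soy livers, with no overlap, a change of 0.87 (SE 0.20, adjusted p = 0.146). The mitochondrial Aldh1b1 differed by -0.40 (adjusted p = 0.529) and Aldh1l1, of folate metabolism, by -0.35 (adjusted p = 0.487), both with overlap. Aldh1a2, another maker of retinoic acid, was well above background on all control arrays and on no soy array, where spots well above background were fewer in general (52.8% to 54.8%, against 61.3% to 64.4% on control arrays); the part of this in the reading was not tested. Its measured means were 7.12 and 6.86 (adjusted p = 0.363), of which the soy mean is not above background. Their difference, which is not exact for that reason, ran from -0.67 with the processed signal (adjusted p = 0.0417) to -0.054 with the 75th percentile shift (adjusted p = 0.818). Of the 4 other alcohol dehydrogenase genes measured, 2 were higher and 2 lower, and their groups overlapped. Adh5, the formaldehyde-clearing enzyme, differed by 0.037 (adjusted p = 0.930), Adh7 by -0.031 (adjusted p = 0.951) and Adhfe1 by 0.0070 (adjusted p = 0.993); the direction of these changes differed between scalings.

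Aldo-keto and carbonyl reductases turn aldehydes and ketones into alcohols. Of 16 genes, 10 were higher and 6 lower, with a median change of 0.054, and 6 were higher without overlap while none was lower without overlap, where 13.3% and 12.3% of the genes well above background on all arrays were. Akr1c14, a hydroxysteroid dehydrogenase, was 13.86, 14.06 and 14.23 in control livers and 14.62, 14.82 and 14.98 in soy livers. All soy livers were above all control livers, a change of 0.76 (SE 0.14, adjusted p = 0.0825), and its other probe differed by 0.67 (adjusted p = 0.104). The carbonyl reductases Cbr3 and Cbr1 differed by 0.72 (SE 0.18, adjusted p = 0.181) and 0.52 (SE 0.16, adjusted p = 0.275), and Akr1c19 by 0.65 (SE 0.20, adjusted p = 0.277), each without overlap.

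Of 7 genes of purine breakdown around xanthine oxidoreductase, 3 were higher and 4 lower, with a median change of -0.043. Gda, the guanine deaminase that makes xanthine, was higher by 0.35 (SE 0.11, adjusted p = 0.293) and Urad, which acts after uric acid oxidation, lower by 0.34 on the log2 scale (change -0.34, SE 0.12, adjusted p = 0.357), both without overlap. Pnp2 differed by -0.32 (adjusted p = 0.467) and Ada, the adenosine deaminase, by 0.27 (adjusted p = 0.557). The remaining routes of ethanol oxidation did not differ beyond their spread, with changes of -0.19 for Cyp2e1 (adjusted p = 0.584) and 0.19 for Cat, the peroxisomal catalase (adjusted p = 0.542).

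**Figure D4:**
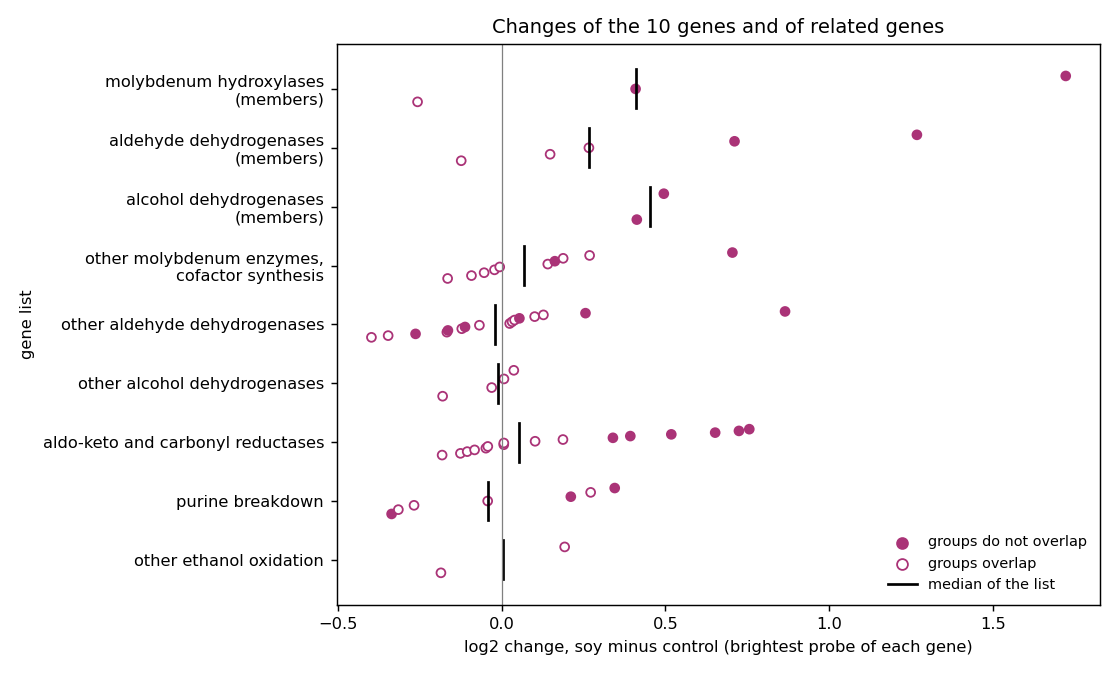
Change of each gene on the log2 scale (soy minus control, brightest probe) for the 3 families and the 6 lists of related genes; filled points are genes whose groups do not overlap, and black lines are list medians. The alcohol dehydrogenases, molybdenum hydroxylases and aldehyde dehydrogenases described here have medians of 0.45, 0.41 and 0.27, and the medians of the other lists lie between -0.043 and 0.067.

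Markers of the tissue and of other cells were read on the same arrays. All 8 hepatocyte markers were well above background on all arrays, with Serpina1a the brightest (change -0.0043, adjusted p = 0.992), and their summed log2 level was 21.26 ± 0.031 in control against 21.12 ± 0.069 in soy livers (SD, n = 3), the soy livers being lower without overlap. By the brightest probe 1 of these 8 genes was higher and 7 were lower. The higher one was Ttr (change 0.059, limma adjusted p = 0.886), but its other probe was lower without overlap (change -0.39, adjusted p = 0.287). The urea cycle genes Ass1 (change -0.55, adjusted p = 0.174) and Cps1 (change -0.47, adjusted p = 0.178) were lower without overlap. Ttr, Ass1 and Cps1 were named after their values were seen. Of 40 markers of 7 other cell types or tissues, 19 were higher and 21 lower, and none passed; 5 had an unadjusted p under 0.05, against 14.2% of all genes. The 6 pancreas markers were all lower in soy livers. Their summed level was 15.09, 15.63 and 15.35 in control livers and 14.64, 14.90 and 14.47 in soy livers, and Cela1, the brightest, differed by -0.73 (adjusted p = 0.191). Of these 6 genes 4 had an unadjusted p under 0.05, and Cela2a, named after its values were seen, differed by -1.21 without overlap (adjusted p = 0.0724). Only 3 of the 6 were well above background on all arrays. Prss2, Cpa1 and Pnlip were so on 2 control arrays and on no soy array, and Prss2 and Cpa1 are among the 4. Their soy means are not above background, so their differences are not exact. The summed levels of the other lists overlapped between the groups except that of endothelial cells, which was 15.34 ± 0.0075 in control against 15.47 ± 0.096 in soy livers, with Clec4g the brightest (change 0.20, adjusted p = 0.546). Of the 6 endothelial markers 3 were higher and 3 lower, the lowest change being that of Lyve1 (-0.67, adjusted p = 0.654). Control 1 of Lyve1 (11.16) lay far above the soy livers (8.89 to 9.49), whereas control 2 (9.23) and control 3 (9.32) lay among them. Of the 6 stellate cell markers 1 was higher and 5 were lower, and Col1a1 (change -0.997, adjusted p = 0.318), like Lyve1 named after its values were seen, was lower without overlap, whereas on its other probe the groups overlapped (change -0.86, adjusted p = 0.394). Of the 7 Kupffer cell markers 6 were higher and 1 lower, with a median change of 0.15, that of Clec4f. Its control 1 (12.97) lay below all soy livers (13.51 and above), whereas control 2 and control 3 lay among them. All 5 blood cell markers measured were higher, with a median change of 0.42, that of Alas2. Its control 2 (11.43) lay far below all soy livers (13.29 and above), whereas control 1 (13.96) and control 3 (13.94) lay above them. Clec4f and Alas2 were named after their values were seen. Of the cholangiocyte markers 3 were higher and 2 lower, and of the adipocyte markers 1 was higher and 4 were lower. The brightest Kupffer cell marker Cd5l differed by 0.45, the stellate cell marker Dcn by -0.083, the cholangiocyte marker Spp1 by 0.15, the red cell marker Hba-a1 by 0.26 and the adipocyte marker Lep by -0.21, with adjusted p-values from 0.538 to 0.843. Epcam of the cholangiocytes, Ngp of the blood cells, and Adipoq and Plin1 of the adipocytes were never well above background. The part of these differences, and of the share of spots well above background given with Aldh1a2, in the changes given above was not tested.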

How the data were processed

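Intensities of 6 one-colour Agilent arrays, 1 per mouse, were used. The authors deposited Feature Extraction 11.5.1.1 output, with median spot and background intensities that are neither corrected nor scaled, marks of spot quality, and a processed intensity with background and spatial trend subtracted. They also deposited a table of log2 values that share their quantiles across arrays; its scale is log2, and its normalization is not given in the sources used here. Here the median intensities were background corrected (normexp, offset 50), control spots were removed, arrays were quantile normalised, log2 transformed, outlier spots left out, and spots of a probe averaged. This can compress the changes of dim probes. All 56605 probes were fitted in R 4.3.3 by lmFit and eBayes of limma 3.58.1, for soy against control, with Benjamini-Hochberg adjustment over all probes. Symbols came from RefSeq accessions (GRCm38.p6 table, 58.3% of probes); the annotation of the arrays is of another build, and probe positions are not given. Marker levels were summed on the linear scale. The fit was tested on simulated data. Tables were made with Python 3.11.15 and pandas 2.3.3, and plots with matplotlib 3.10.9.

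The members and gene lists were chosen with earlier results of these data known. Text names all members, any list gene that passed, otherwise the 4 largest changes of a list among genes measured well above background throughout a group, and the brightest gene of each marker list. No list was given a set test. Alternatives were other background corrections, signals, normalizations, filters, variance settings, probe summaries, blocks, thresholds, the deposited values, and each array left out.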

Additional observations from a re-analysis of the deposited data

How the results depend on the processing

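The number of genes that passed was 122 (63.9% higher in soy). It was 48 with an offset of 16, 5892 with the processed signal with 75th percentile scaling (89.7% higher), 313 with only probes well above background, 184 with trend and robust variance settings, 51 with the replicate block, 16 with slide as a block, and 18 to 130 with 1 array left out (18 without soy 2, 19 without soy 3, 30 without soy 1, 45 without control 2, 63 without control 1). More of the genes that passed were lower than higher with slide as a block (43.8% higher) and without soy 3 (47.4% higher). Of the 10 genes, 0 passed; 3 did with the processed signal (Aldh1a1, Aldh3a2, Aox1), 2 with only probes well above background (Aldh3a2, Aox1), 1 with the 75th percentile shift (Aldh3a2) and 1 with trend and robust settings (Aldh3a2). With 1 array left out, 0 to 1 passed, Aox1 without control 1 and Aldh3a2 without control 3 (adjusted p = 0.0470). Of the related genes 0 passed, 7 with the processed signal and 1 (Akr1c14) with only probes well above background. The processed signal and the 75th percentile shift moved the median change of all probes to 0.125 and 0.134, from -0.0103. With fewer probes tested, adjustment runs over fewer p-values, but the cause was tested for no setting.

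The within-slide differences, with their turns of sign, are given above. Values under the other settings were compared only for the 10 genes and for the genes named by the rule given above. Genes named after their values were seen were not compared. Among those compared, the direction turned for 2 probes of Aldh9a1, 1 of Aldh2 and 5 genes outside the 10. The brighter Aldh9a1 probe was 0.0093 with slide as a block. With 1 array left out, the dimmer Aldh9a1 probe ran from -0.028 to 0.16, the dimmer Aldh2 probe from -0.036 to 0.14, Adh5 from -0.032 to 0.105, Adh7 from -0.11 to 0.083, Adhfe1 from -0.15 to 0.15, Serpina1a from -0.038 to 0.019 and Hba-a1 from -0.068 to 0.496. With the processed signal Adh5 was -0.032 and Serpina1a 0.099. With the 75th percentile shift Adh5 was -0.038, Adh7 0.15, Adhfe1 -0.016 and Serpina1a 0.089. With cyclic loess Adh5 was -0.0076, Adh7 0.024 and Serpina1a 0.13. Hba-a1 was -0.12 with slide as a block. Some changes kept their sign with 1 array left out but moved in size. Xdh ran from -0.45 to -0.11 on the brighter probe and from 0.077 to 0.38 on the dimmer one. Aldh1a7 ran from 0.12 to 0.35, and the brighter Aldh2 probe from 0.072 to 0.27 (0.046 with the 75th percentile shift). Suox ran from 0.077 to 0.48, Mtarc1 from -0.26 to -0.070, Aldh1b1 from -0.59 to -0.21, Aldh1l1 from -0.47 to -0.21 and Cd5l from 0.20 to 0.61.

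Arrays with the same replicate number correlated in their deviations from the group means by 0.116, -0.0574 and 0.106. The other pairs ran from -0.202 to 0.105, and not every array correlated best with its own number. The arrays numbered 1 share a slide, and so do those numbered 3. With 3 arrays per group, these values cannot decide whether the samples were paired. With the replicate block, none of the 10 genes passed, and the adjusted p of Aox1 was 0.0643. The mean signal of the spots was planned as an input and was not run, since the scanner files used here hold no such column.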
